A study of Homo sapiens with 15 samples.

Results

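Chromosome 13 is one of the chromosomes with the fewest genes in the human genome, and its peaks from chromatin immunoprecipitation with sequencing (ChIP-seq) are described here. They were taken as all deposited peaks on chromosome 13 of the build hg19, and numbered 10944 of the 647617 peaks in the 4 lists. They comprised 4281 H3K4ox peaks of replicate 1, 4128 H3K4ox peaks of replicate 2, 947 H2A.Z peaks and 1588 RUVBL2 peaks. The chromosome was divided by fixed positions, which were chosen with earlier results of these peaks known: 2 desert zones from 53 to 72 Mb and from 80 to 95 Mb, 2 gene-richer zones from 19 to 53 Mb and from 95 to 115 Mb, and the stretch from 72 to 80 Mb between the deserts.

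The series studied MDA-MB-231, an established, aneuploid line of triple-negative breast cancer, and its title names LOXL2 and chromatin compaction. Of its 15 samples, 4 had a peak list, with 2 for H3K4ox (antibody labelled handmade) and 1 each for H2A.Z and RUVBL2 (commercial antibodies). No knockdown is given for these 4 libraries. The other 11 samples, 1 input, 8 RNA-seq and 2 ATAC-seq libraries, were not analysed here.

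LOXL2 is a lysyl oxidase that oxidises lysine 4 of histone H3, and the product is written H3K4ox. H2A.Z is a variant of histone H2A that is known from nucleosomes at promoters and enhancers and is exchanged by the SRCAP, TIP60 and INO80 remodellers, all of which hold the ATPase RUVBL2. Chromosome 13 is acrocentric, with a short arm of ribosomal and satellite repeats that hg19 leaves unsequenced, and long gene-free stretches of its long arm are commonly late-replicating and attached to the nuclear lamina.

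The lists give peaks and scores without reads, and the depth of sequencing is unknown. RUVBL2 and H2A.Z each had a single list. No source says that the H3K4ox replicates were grown separately, and their spread may therefore be technical. With 2 lists on one side and 1 on the other, the smallest exact permutation p (two-sided) is 0.33. Differences between antibodies, and between zones within 1 list, are given as values and were not tested. The file headers name an input for the H3K4ox lists and none for H2A.Z and RUVBL2, and the part of this in the differences was not tested. Intervals (95%) are Poisson intervals for densities and Wilson intervals for shares. They reflect counting error alone and take peaks to be independent, although peaks cluster.

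Peaks of the 4 lists lay between 19027018 and 115101807 on the long arm, a span of 96.1 Mb. The label gene-poor matches the annotation. RefSeq lists 338 protein-coding genes on the chromosome, or 3.52 per Mb of this span, the second lowest density of 23 chromosomes. Chromosome 18 was lowest with 3.46, the other 22 chromosomes had a median of 6.16 and chromosome 19 was highest with 24.6. The order of chromosomes 13 and 18 depends on the span used. Without peak-free stretches of 1 Mb or more, the span of chromosome 18 falls from 78.0 to 74.9 Mb. That of chromosome 13 is unchanged, and chromosome 13 is then the lowest. Genes within the zones were not counted, since no annotation of hg19 was used here, and the names desert and gene-richer are taken as given.

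Chromosome 13 was sparse for all 3 antibodies, and least so for H2A.Z. Its densities per Mb were 43.8 ± 1.1 peaks for H3K4ox (SD, n = 2), 9.86 for H2A.Z and 16.5 for RUVBL2, against medians of 84.4, 12.4 and 35.2 over the other 22 chromosomes. For RUVBL2 this was the lowest density of the 23 chromosomes. For H3K4ox it was the second lowest, above X with 27.0, and for H2A.Z the sixth lowest. Relative to the mean of the 23 chromosome densities, the values were 0.472 ± 0.005 for H3K4ox (SD, n = 2), 0.737 for H2A.Z and 0.432 for RUVBL2. The chromosome held 22.5 H2A.Z peaks per 100 H3K4ox peaks, against a median of 14.5 over the others. Only chromosomes 4 and 6 had a higher value, 26.7 and 29.9.

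H3K4ox scores were also low on chromosome 13. The score is the authors' own, written by their peak caller, with a lowest value of 50 in each list and no stated scale. The median H3K4ox score was 72.1 ± 0.6 (SD, n = 2) on chromosome 13, against 82.7 ± 1.0 over the whole lists, and was the lowest of the 23 chromosomes in either replicate. Of the H3K4ox peaks, 9.13% ± 0.07 (SD, n = 2) were among the best 10% of their list. For H2A.Z the median score was 65.7, against 66.7 in the whole list, and for RUVBL2 72.6 against 73.4. Peaks were narrower in all lists, with median widths on chromosome 13 of 749 ± 10 bp against 830 ± 16 bp for H3K4ox (SD, n = 2), 741 bp against 808 bp for H2A.Z and 804 bp against 870 bp for RUVBL2.

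Along the chromosome in 5 Mb steps, H2A.Z was densest where H3K4ox was sparse, and RUVBL2 varied least. The 4 steps from 20 to 40 Mb held 69, 25, 18 and 29 H2A.Z peaks. The next 4 steps, to 60 Mb, held 31, 35, 30 and 40. From 60 to 75 Mb the counts were 78, 96 and 57, with 29 in the step from 75 to 80 Mb. The steps from 80 to 95 Mb held 96, 119 and 97, the 4 highest together with that from 65 to 70 Mb. The last 4 steps, to 115 Mb, held 36, 26, 15 and 14. H2A.Z was thus densest at 85 to 90 Mb with 23.8 peaks per Mb and sparsest at 110 to 115 Mb with 2.8, an 8.5-fold range over 19 complete steps.

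H3K4ox was densest at 20 to 25 Mb, with 72.6 peaks per Mb in replicate 1 and 69.8 in replicate 2, and high again at 45 to 50 Mb (69.2 and 68.8) and at 95 to 100 Mb (66.0 and 62.0). It was sparsest at 65 to 70 Mb, with 23.4 and 23.8 peaks per Mb, a 3.02-fold range of the means. The step at 85 to 90 Mb, where H2A.Z was densest, held 24.6 and 24.4 H3K4ox peaks per Mb. Steps sparse in H3K4ox were not always rich in H2A.Z. At 105 to 110 Mb, 29.6 and 28.8 H3K4ox peaks per Mb stood beside 3 of H2A.Z. At 90 to 95 Mb, 29.6 and 27.4 stood beside 19.4. RUVBL2 was densest at 20 to 25 Mb with 23 peaks per Mb and sparsest at 110 to 115 Mb with 10.4, a 2.21-fold range. The last step was low in H2A.Z and RUVBL2 but not in H3K4ox, which had 51.1 ± 0.1 peaks per Mb there (SD, n = 2). Per 100 H3K4ox peaks, H2A.Z numbered 97.1 at 85 to 90 Mb and 5.48 at 110 to 115 Mb, and RUVBL2 ranged between 20.4 (110 to 115 Mb) and 53.8 (80 to 85 Mb).

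**Figure D1:**
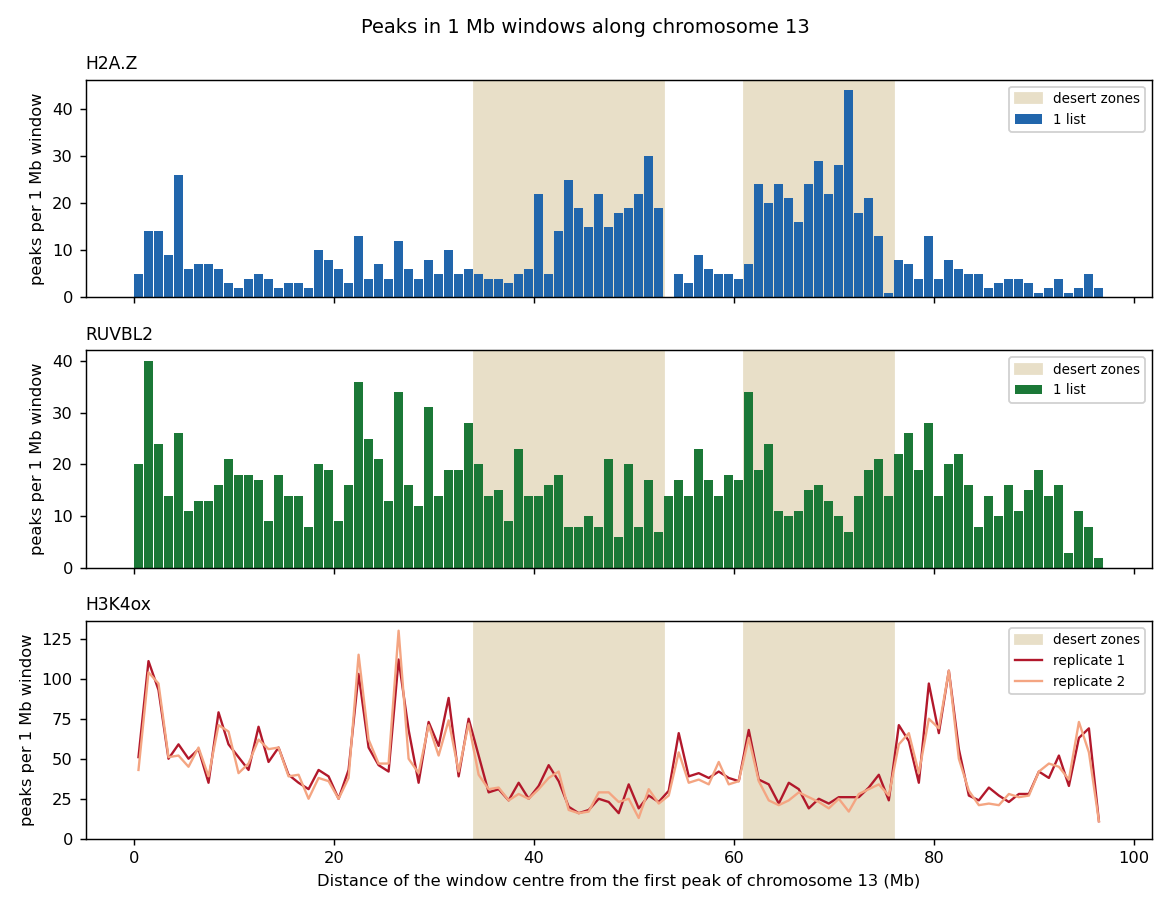
Peaks per 1 Mb window (y axis) against the distance of the window from the first peak of chromosome 13 (x axis, Mb), with H2A.Z and RUVBL2 as bars of 1 list each and the 2 H3K4ox replicates as lines; shaded bands are the desert zones. H2A.Z reaches 30 peaks in the first band and 44 in the second, where both H3K4ox lines run low.

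In the desert zones H2A.Z was denser, H3K4ox sparser and RUVBL2 slightly sparser than in the gene-richer zones. The deserts cover 34 Mb and the gene-richer zones 54.1 Mb of the span. The deserts held 584 H2A.Z peaks, or 17.2 per Mb (95% interval 15.8 to 18.6), against 326 in the gene-richer zones, or 6.03 per Mb (5.39 to 6.72). The ratio of densities was 2.85 (2.49 to 3.26). With 61.7% of its chromosome 13 peaks in the deserts, H2A.Z was the only one of the antibodies with a majority there.

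The H3K4ox lists held 999 and 941 peaks in the deserts, against 2952 and 2882 in the gene-richer zones. Their densities averaged 28.5 ± 1.2 per Mb in the deserts and 53.9 ± 0.9 per Mb in the gene-richer zones (SD, n = 2), a ratio of 0.529 ± 0.013. The difference between zones was far larger than that between replicates. The RUVBL2 list held 494 peaks in the deserts, or 14.5 per Mb (13.3 to 15.9), against 960 in the gene-richer zones, or 17.8 per Mb (16.6 to 18.9). Its ratio was 0.818 (0.734 to 0.912), but the ratio was 0.97 in the upper 50% of the list by score. Per 100 H3K4ox peaks the deserts held 60.2 H2A.Z and 50.9 RUVBL2 peaks, against 11.2 and 32.9 in the gene-richer zones.

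The stretch from 72 to 80 Mb, which parts the deserts, did not share their H2A.Z density. The desert before it held 272 H2A.Z peaks, or 14.3 per Mb (12.7 to 16.1), and the desert after it 312, or 20.8 per Mb (18.6 to 23.2), against 37, or 4.63 per Mb (3.26 to 6.37), in the stretch itself. The gene-richer zones had 6.86 (19 to 53 Mb) and 4.63 (95 to 115 Mb) per Mb. For H3K4ox, the 2 deserts had 27.5 ± 0.7 and 29.8 ± 1.9 peaks per Mb, the stretch between them 39.7 ± 2.2 and the gene-richer zones 57.4 ± 0.6 and 48.2 ± 1.4 (SD, n = 2). RUVBL2 densities were 13.5 and 15.9 per Mb in the deserts, 16.8 between them and 19.02 and 15.6 in the gene-richer zones. For RUVBL2 the second desert and the last gene-richer zone had overlapping intervals (13.9 to 18.0 against 13.9 to 17.4).

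**Figure D2:**
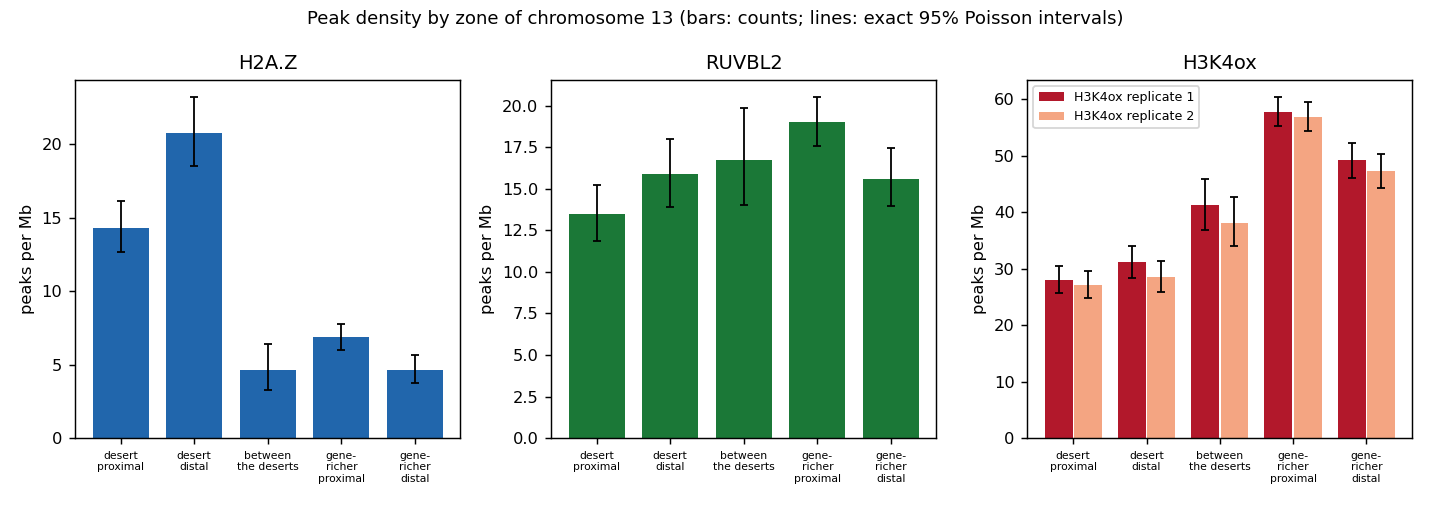
Peaks per Mb (y axis) in each zone of chromosome 13, for H2A.Z, RUVBL2 and the 2 H3K4ox replicates; bars are counts over zone length and lines are exact 95% Poisson intervals. H2A.Z stands at 14.3 and 20.8 in the deserts and at 4.63 to 6.86 elsewhere, and H3K4ox is lowest in the deserts in both replicates.

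Windows of 1 Mb showed where H2A.Z was dense. Of 97 windows, 30 held at least 13 H2A.Z peaks, a minimum chosen after the counts were seen. Most of them formed 2 unbroken runs, 11 windows from 61 to 72 Mb and 13 windows from 81 to 94 Mb. The first run held 218 H2A.Z peaks, with a lowest, median and highest window of 14, 19 and 30, and the second held 304, with 13, 22 and 44. By their definition the runs end where a window holds fewer than 13 H2A.Z peaks. On the right the last windows of the runs held 19 and 13. The window from 72 to 73 Mb, right after the first run, held 0 H2A.Z peaks, and that from 94 to 95 Mb, right after the second, held 1. On the left of the first run the counts were uneven, with 22 H2A.Z peaks at 59 to 60 Mb, 5 at 60 to 61 Mb and 14 at 61 to 62 Mb. On the left of the second, 7 at 80 to 81 Mb were followed by 24 at 81 to 82 Mb. Both windows on the right still held peaks of the other antibodies, 28.5 ± 2.1 and 25.5 ± 2.1 H3K4ox peaks (SD, n = 2) and 14 RUVBL2 peaks each.

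Together the runs covered 24 windows and held 522 H2A.Z peaks, 55.1% of those on the chromosome, a share that follows from how the runs were chosen. H3K4ox had 25.7 ± 0.9 peaks per Mb in the runs, against 49.1 ± 1.2 in the other 73 windows (SD, n = 2), and RUVBL2 13.4 against 17.4. The desert from 53 to 61 Mb lay outside the runs, and the 5 windows before the first run held 8.2 H2A.Z peaks per Mb. The densest window, from 90 to 91 Mb, held 44 H2A.Z peaks beside 26 and 17 H3K4ox peaks and 7 RUVBL2 peaks. The longest stretch of the chromosome without an H2A.Z peak, 1304 kb from 71865240 to 73169272, began where the first run ended.

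Across the 97 windows, H2A.Z counts had Spearman correlations of -0.16 and -0.18 with the 2 H3K4ox lists, against medians of 0.44 and 0.46 over the other 22 chromosomes. Chromosome 4 (-0.20 and -0.16) and chromosome 21 (-0.10 and -0.17) also had negative values. RUVBL2 counts correlated with H3K4ox at 0.62 and 0.59, against medians of 0.75 and 0.76 elsewhere, and with H2A.Z at 0.10, against 0.62. The H3K4ox replicates correlated at 0.94, against 0.98. Windows are neighbours within the same libraries and are not independent, so these are descriptions.

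Peak scores were higher in the deserts for all 3 antibodies. Median H3K4ox scores were 78.3 and 76.0 in the deserts for replicates 1 and 2, against 71.0 and 69.97 in the gene-richer zones. H2A.Z had medians of 68.7 in the deserts and 61.1 in the gene-richer zones, and RUVBL2 77.8 and 69.2. Peaks were also wider in the deserts, with medians of 785 ± 6 bp against 742 ± 13 bp for H3K4ox (SD, n = 2), 764 bp against 690 bp for H2A.Z and 869 bp against 771 bp for RUVBL2. At the top of the lists the zones were more alike for H2A.Z and RUVBL2. Peaks among the best 10% of the list made up 7.36% of H2A.Z peaks in the deserts and 7.67% in the gene-richer zones, and 10.7% and 10.4% of RUVBL2 peaks. For H3K4ox these shares were 10.9% ± 0.2 and 8.42% ± 0.07 (SD, n = 2).

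Dividing each whole list by score into 4 groups of equal size showed that H2A.Z was denser in the deserts at every score level. From the lowest to the highest group, the ratio of desert to gene-richer density was 1.89, 2.52, 4.08 and 3.71 for H2A.Z. The highest group had 140 peaks in the deserts and 60 in the gene-richer zones, and the 95% interval of its ratio was 2.75 to 5.02. For H3K4ox the ratios were 0.453 ± 0.018, 0.472 ± 0.005, 0.508 ± 0.033 and 0.777 ± 0.001 (SD, n = 2), closest to equal density in the highest group. For RUVBL2 they were 0.694, 0.678, 1.01 and 0.945, and the intervals of the upper 2 groups (0.808 to 1.27 and 0.770 to 1.16) include equal density.

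Overlaps between the antibodies were counted where peaks shared at least 1 bp. H3K4ox shared regions are merged H3K4ox peaks that hold a peak of both replicates, and chromosome 13 had 2261 of them (3.14 Mb in all), 38.2% of 5914 merged regions. Each observed share was set beside the share of all possible positions of the same peak widths that would meet the target. This was computed over every position of the span, or of the peak's own zone, without random draws and without a p-value.

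The H3K4ox replicates met each other less often on chromosome 13 than on any other of the 23 chromosomes, but the share at all positions was low as well. The share meeting the other replicate was 54.9% for replicate 1 and 58.2% for replicate 2. On average 56.6% ± 2.3 (SD, n = 2) met on chromosome 13, against a median of 69.0% on the others. The share at all positions was 8.07%, so the observed share was 7.01-fold as large, against a median of 4.18-fold on the others. In the deserts 59.7% ± 3.0 met, against 55.8% ± 1.9 in the gene-richer zones (SD, n = 2), and the deserts were higher in each replicate (57.6% against 54.5%, and 61.8% against 57.1%). Over the 2261 shared regions the Spearman correlation between the replicates' scores was 0.75 across regions, with 0.79 in the deserts and 0.72 in the gene-richer zones.

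RUVBL2 was found with H3K4ox far more often than H2A.Z was. On chromosome 13, 955 of 1588 RUVBL2 peaks (60.1%, 57.7 to 62.5) lay in H3K4ox shared regions, against 5.59% at all positions. The observed share was close to the median of the other 22 chromosomes, 63.1%, while the 10.8-fold ratio was exceeded only by that of X (13.2) and compares with a median of 4.69 elsewhere. Of the 2261 shared regions, 824 (36.4%) contained RUVBL2. The ratio depends on how overlap is counted. It was 21.4 for the better-scoring 50% of each list, 18.7 when at least 50% of the peak had to be covered, and 23.04 for 200 bp intervals at peak centres. It was 6.56 with H3K4ox peaks of either replicate as the target.

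H2A.Z peaks on chromosome 13 mostly lay apart from H3K4ox. Of 947 peaks, 157 (16.6%, 14.3 to 19.1) lay in H3K4ox shared regions, against 5.02% at all positions, a 3.30-fold ratio. This was the lowest observed share of the 23 chromosomes, with chromosome 4 next at 30.6% and a median of 42.1% over the others. The ratio to all positions, however, was close to the median of the others, 3.45. Shared regions need a peak of both replicates, which met least on chromosome 13. With H3K4ox of either replicate as the target, 337 of the 947 peaks (35.6%, 32.6 to 38.7) met it, again the lowest share of the 23 chromosomes (X next with 45.5%, median of the others 64.1%), with a 3.41-fold ratio to all positions beside a median of 3.14. Of the H2A.Z peaks, 118 (12.5%, 10.51 to 14.7) met a RUVBL2 peak, against 2.94% at all positions, a 4.24-fold ratio. Here too the observed share was the lowest of the 23 chromosomes, where the others had a median of 31.8%, and the ratio was near their median of 4.60. With 200 bp intervals at the centres the ratios were 9.44 for H2A.Z in H3K4ox shared regions and 9.29 for H2A.Z with RUVBL2.

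**Figure D3:**
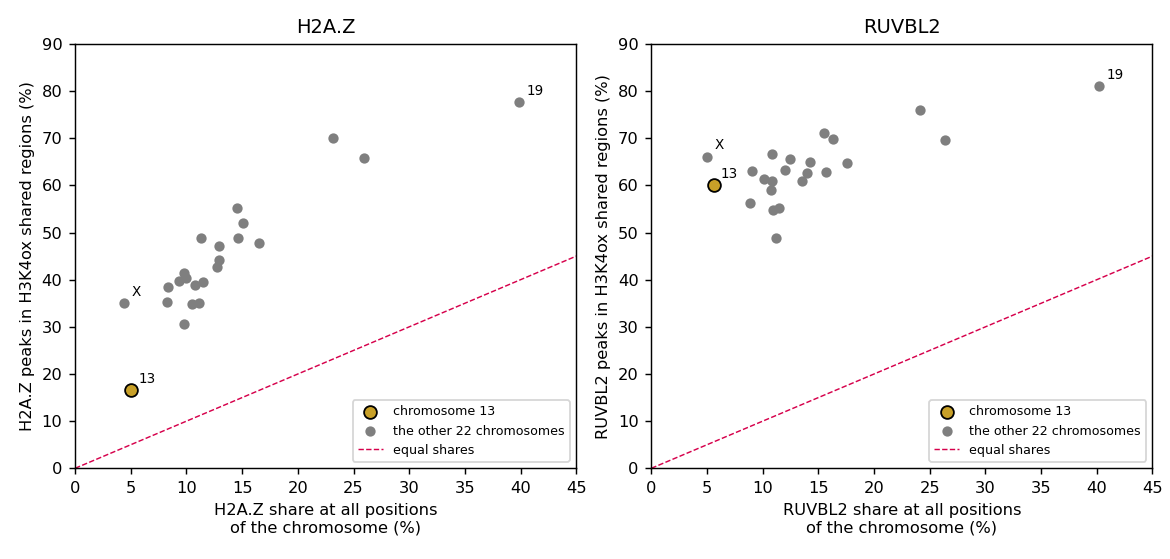
Share of H2A.Z peaks (left) and of RUVBL2 peaks (right) in H3K4ox shared regions (y axis, %) against the share at all positions of the same chromosome (x axis, %), 1 point per chromosome; the dashed line marks equal shares. Chromosome 13 lies below the others for H2A.Z, at 16.6%, but among them for RUVBL2, at 60.1%.

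The H2A.Z peaks of the deserts met H3K4ox and RUVBL2 least. In the deserts 58 of 584 H2A.Z peaks (9.93%, 7.76 to 12.6) lay in H3K4ox shared regions, against 91 of 326 (27.9%, 23.3 to 33.0) in the gene-richer zones. The shares at all positions of the same zones were 3.68% in the deserts and 5.99% in the gene-richer zones, so the ratios were 2.70 and 4.66. The 2 deserts were alike, with 9.93% (53 to 72 Mb) and 9.94% (80 to 95 Mb), and the gene-richer zones had 26.2% (19 to 53 Mb) and 32.3% (95 to 115 Mb). Between the deserts, 8 of 37 peaks (21.6%, 11.4 to 37.2) lay in shared regions.

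The level of this share rests on how H3K4ox is defined, and its order between zones did not turn under the 7 other settings tried. With H3K4ox replicate 2 alone as the target, 17.6% of desert H2A.Z peaks met it, against 37.4% of those in the gene-richer zones. With replicate 1 alone the shares were 19.5% and 38.7%, and with peaks of either replicate 27.6% and 48.8%. Relative to all positions of the same zones, the either-replicate shares were 3.91-fold in the deserts and 3.81-fold in the gene-richer zones. That ratio therefore shows no deficit in the deserts, unlike the ratio for shared regions. For the better-scoring 50% of each list the shares in shared regions were 6.62% and 16.3%, and for 200 bp intervals at the centres 4.97% and 13.5%. Counted from H3K4ox, the order was the reverse. In the deserts 57 of 547 shared regions (10.4%) met H2A.Z. In the gene-richer zones, where H2A.Z is sparser, 92 of 1553 (5.92%) did.

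Counted from H2A.Z peaks, the lower share in the deserts was also found within a band of widths and within each of 3 score groups. Among H2A.Z peaks of 700 to 900 bp, 20 of 238 (8.40%) in the deserts lay in shared regions, against 30 of 97 (30.9%) in the gene-richer zones. From the lowest to the highest of 3 equal groups by H2A.Z score on the chromosome, the shares were 10.9%, 7.92% and 11.1% in the deserts and 27.5%, 34.0% and 21.98% in the gene-richer zones.

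RUVBL2 peaks showed the opposite order. In the deserts 331 of 494 RUVBL2 peaks (67.0%, 62.7 to 71.0) lay in H3K4ox shared regions, against 544 of 960 (56.7%, 53.5 to 59.8) in the gene-richer zones. At all positions of the same zones the shares were 4.04% in the deserts and 6.65% in the gene-richer zones, which gave ratios of 16.6 and 8.53. The deserts had 68.0% (53 to 72 Mb) and 66.0% (80 to 95 Mb), and the gene-richer zones 57.7% (19 to 53 Mb) and 54.5% (95 to 115 Mb). The share was also higher in the deserts under each of the 7 other settings. In percentage points the gap was smallest for 200 bp intervals at the centres, where the shares were 21.5% and 18.9%. With H3K4ox of either replicate they were 79.96% (76.2 to 83.3) in the deserts and 76.1% (73.3 to 78.7) in the gene-richer zones, with overlapping intervals.

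The RUVBL2 share followed the RUVBL2 score, and so did the width of the peaks. From the lowest to the highest of 3 equal groups by RUVBL2 score on the chromosome, it was 34.2%, 65.9% and 94.9% in the deserts. In the gene-richer zones it was 30.5%, 49.5% and 94.9%. The zones thus differed in the middle group, where 112 of 170 desert peaks (58.5 to 72.6%) and 161 of 325 gene-richer peaks (44.1 to 54.9%) lay in shared regions, and were alike in the highest. Median widths over the same 3 groups were 626, 816 and 1482 bp in the deserts and 622, 770 and 1506 bp in the gene-richer zones, and the part of width in these shares, counted from 1 bp of overlap, was not tested. Among RUVBL2 peaks of 700 to 900 bp the shares were 51.8% in the deserts (59 of 114) and 43.2% in the gene-richer zones (98 of 227), with overlapping intervals of 42.7 to 60.7 and 36.9 to 49.7. Seen from H3K4ox, 283 of 547 shared regions in the deserts (51.7%) held a RUVBL2 peak, against 468 of 1553 (30.1%) in the gene-richer zones. Shared regions were wider in the deserts, with a median of 1240 bp against 996 bp.

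**Figure D4:**
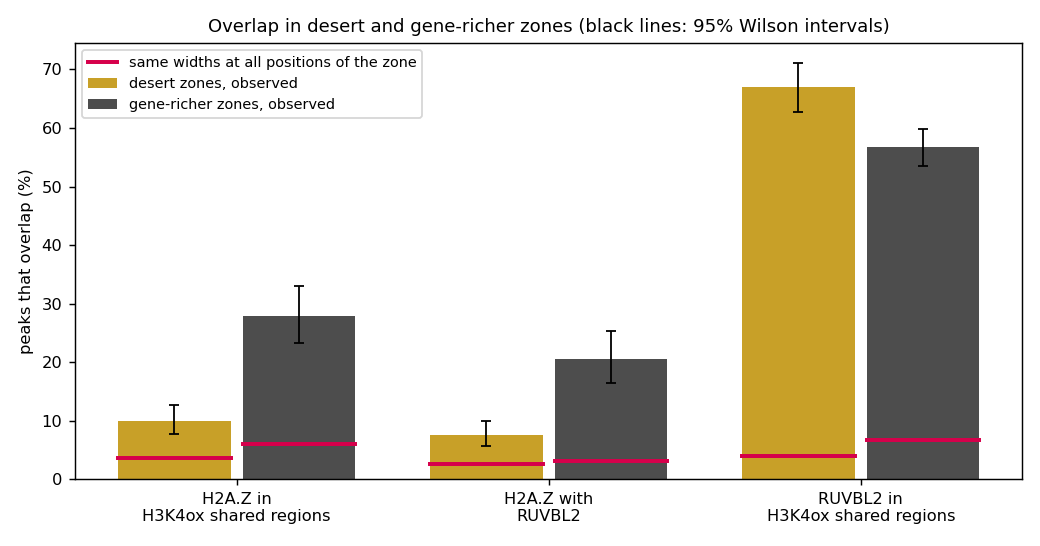
Share of peaks that overlap (y axis, %) for H2A.Z in H3K4ox shared regions, H2A.Z with RUVBL2 and RUVBL2 in H3K4ox shared regions, in the desert and gene-richer zones; black lines are 95% Wilson intervals and red lines the share of the same widths at all positions of the zone. The desert bars are lower for both H2A.Z overlaps (9.93% and 7.53%) and higher for RUVBL2 in H3K4ox (67.0%).

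H2A.Z and RUVBL2 rarely met in the deserts. Of the desert H2A.Z peaks, 44 of 584 (7.53%, 5.66 to 9.96) met a RUVBL2 peak, against 67 of 326 (20.6%, 16.5 to 25.3) in the gene-richer zones. The shares at all positions of the same zones were 2.64% and 3.13%, and the ratios 2.85 in the deserts and 6.56 in the gene-richer zones. Counted from RUVBL2, 45 of 494 peaks (9.11%) in the deserts met H2A.Z, against 66 of 960 (6.88%) in the gene-richer zones, where H2A.Z is sparser. The deserts held 118.2 H2A.Z peaks per 100 RUVBL2 peaks, against 34.0 in the gene-richer zones.

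Taking the antibodies jointly, most desert H2A.Z peaks stood alone, as would most positions of the same zones. In the deserts 506 of 584 H2A.Z peaks (86.6%) met neither an H3K4ox shared region nor RUVBL2, against 218 of 326 (66.9%) in the gene-richer zones. Counting H3K4ox of either replicate, 407 (69.7%) of the desert peaks and 159 (48.8%) of the gene-richer peaks still met nothing. At all positions of the same zones, the share meeting shared regions was 3.68% in the deserts and 5.99% in the gene-richer zones. For H3K4ox of either replicate it was 7.04% and 12.8%, and for RUVBL2 2.64% and 3.13%. The joint share at all positions was not computed, but most positions would meet nothing in either class of zone. H2A.Z peaks with both others numbered 24 (4.11%) in the deserts and 50 (15.3%) in the gene-richer zones. Peaks that stood alone had a median score of 68.9 in the deserts and 61.2 in the gene-richer zones, beside 69.9 and 60.5 for the peaks with both others. In the deserts the median was 72.4 for peaks with H3K4ox only and 62.9 for those with RUVBL2 only. The order was not the same in the 2 deserts. From 53 to 72 Mb the 13 peaks with both others had a median of 59.4, against 68.6 alone, and from 80 to 95 Mb the 11 peaks with both had 83.4, against 70.7 alone. In the H2A.Z-rich runs of windows 88.1% of H2A.Z peaks met neither, against 68.5% in the other windows. The share at all positions was not computed for these windows.

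RUVBL2 peaks fell into other classes. In the deserts 306 (61.9%) met an H3K4ox shared region but not H2A.Z, against 495 (51.6%) in the gene-richer zones, and 143 (28.9%) met neither, against 399 (41.6%). RUVBL2 peaks with both others had the highest median scores, 144.3 in the deserts and 208.1 in the gene-richer zones, and median widths of 1524 and 1751 bp. RUVBL2 peaks with neither had median scores of 58.2 and 58.6 and widths of 666 and 655 bp.

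The overlaps were centred on the peaks in both zones, to different heights. H3K4ox shared regions covered 9.25% of H2A.Z centres in the deserts and 27.6% in the gene-richer zones. At 20 kb on either side of the centres, the coverage was 1.71% and 0.86% in the deserts and 6.75% and 5.21% in the gene-richer zones. RUVBL2 peaks covered 6.85% of H2A.Z centres in the deserts and 17.2% in the gene-richer zones. At RUVBL2 centres the H3K4ox coverage was 64.0% in the deserts and 55.2% in the gene-richer zones, beside 2.43% to 3.85% and 4.17% to 4.69% at 20 kb.

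**Figure D5:**
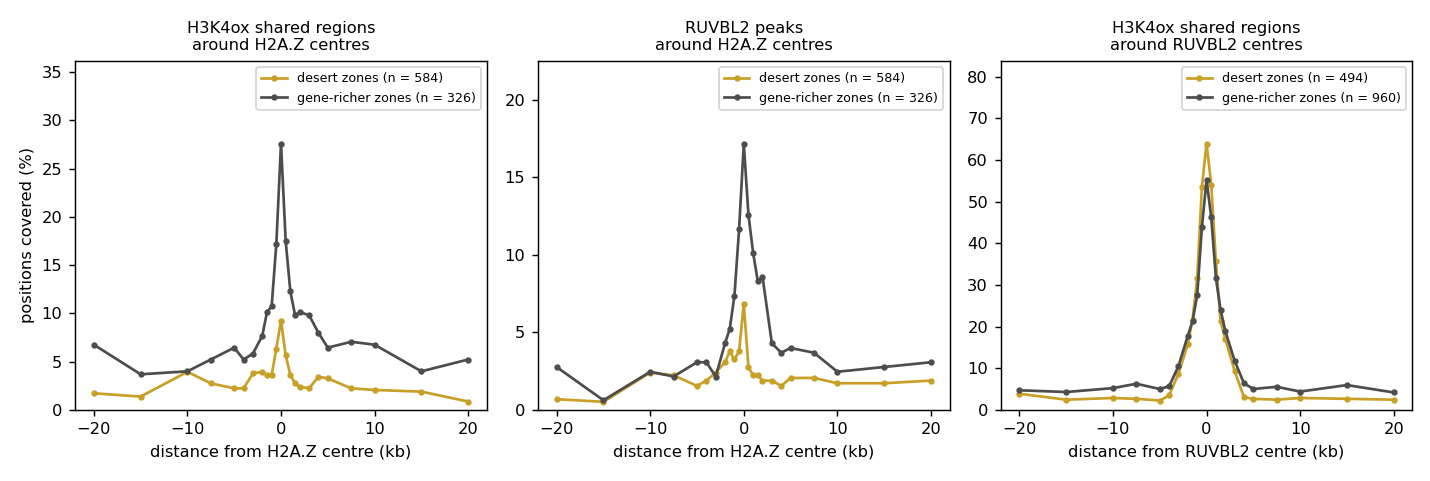
Share of positions covered (y axis, %) against the distance from the centre of H2A.Z or RUVBL2 peaks (x axis, kb), in the desert and gene-richer zones. The curves peak at 0 kb in each panel; at H2A.Z centres the desert curve reaches 9.25% for H3K4ox and the gene-richer curve 27.6%, while at RUVBL2 centres they reach 64.0% and 55.2%.

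Distances gave the same order. From an H2A.Z centre, the median distance to the nearest H3K4ox shared region was 20.96 kb in the deserts, where it was 23.6 kb over all positions of the zones. In the gene-richer zones it was 4.95 kb, where it was 13.3 kb over all positions. The nearest RUVBL2 peak lay at a median of 24.1 kb in the deserts (27.9 kb over all positions) and of 8.86 kb in the gene-richer zones (23.9 kb). Within 5 kb of a shared region lay 23.1% of H2A.Z centres in the deserts, where 16.0% of all positions did, and 50% in the gene-richer zones, where 26.2% of all positions did.

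H2A.Z peaks lay closer together in the deserts, where they were denser. Neighbouring H2A.Z peaks had a median distance of 32.1 kb in the deserts and 78.3 kb in the gene-richer zones, where peaks spread independently at the same densities would have 40.4 and 114.98 kb. Linking H2A.Z peaks within 50 kb of each other gave 38 groups of at least 5 peaks in the deserts, with 45.2% of the desert peaks, against 6 such groups with 13.2% in the gene-richer zones. Linking at a fixed distance follows density, and peaks spread independently at the same densities would have 30.7% and 1.91% of peaks in such groups. Neighbours under 10 kb apart made up 21.1% of neighbouring pairs in the deserts (15.8% at even density) and 10.49% in the gene-richer zones (5.85%). Relative to even density, close spacing was thus more pronounced in the gene-richer zones. Even density here is 1 pooled value per class of zone. The 5 Mb steps within the gene-richer zones ranged from 2.8 to 13.8 peaks per Mb, and those within the deserts from 8 to 23.8. The part of this broad variation in the close spacing was not tested. The group with the most members in the deserts lay at 90344929 to 90669864 (325 kb). Scores of its 20 H2A.Z peaks ran from 50.6 to 269.6, and 0 of them lay in an H3K4ox shared region and 1 met RUVBL2. The group with the most members in the gene-richer zones lay at 22917401 to 23185293 (268 kb), with 13 H2A.Z peaks, of which 7 lay in shared regions and 4 met RUVBL2.

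Single sites are given by position in hg19, as the 5 best-scoring peaks of each list in either class of zone. The best H2A.Z peak of the deserts lay at 65725943 to 65727757, with a score of 437 and a width of 1815 bp, and met no peak of another list. The next in the deserts, at 89867093 to 89868807 (score 350) and 91032780 to 91034189 (score 303), also met none. None of the 5 lay in a shared region, against 9.93% of all desert H2A.Z peaks. In the gene-richer zones the best H2A.Z peak lay at 50068884 to 50070227, with a score of 767 and rank 45 in the whole list, inside an H3K4ox shared region and without RUVBL2. The other 4 best in the gene-richer zones met no peak of another list, beside 48.8% of all H2A.Z peaks there.

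The best RUVBL2 peak of the deserts lay at 89741770 to 89745970, with a score of 736, a width of 4201 bp and rank 64 of the 109607 in the list. It met an H3K4ox shared region but no H2A.Z peak. In the gene-richer zones the best lay at 34560682 to 34564703, with a score of 620 and a width of 4022 bp, also in a shared region without H2A.Z. All 10 best RUVBL2 peaks lay in H3K4ox shared regions, and 3 of them met H2A.Z, 1 in the deserts and 2 in the gene-richer zones. In the highest of 3 score groups 94.9% lay in shared regions in either class of zone. Over all RUVBL2 peaks, 9.11% met H2A.Z in the deserts and 6.88% in the gene-richer zones.

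The 5 best-scoring H3K4ox peaks of each replicate differed between zones in whether RUVBL2 was present, and also in width and score. In the deserts, the best site of replicate 1 lay at 67313104 to 67317718 (score 818, width 4615 bp) and that of replicate 2 at 82620391 to 82625214 (score 966, width 4824 bp). The 5 best peaks of each replicate in the deserts were 10 different sites, at which RUVBL2 was present in 10 and H2A.Z in 2. In the gene-richer zones the best site was the same in both replicates. It lay at 31415941 to 31419358 in replicate 1, with a score of 2123 and rank 78 in the list, and at 31416091 to 31419381 in replicate 2, with a score of 2063 and rank 74. It held neither RUVBL2 nor H2A.Z. The 5 best of each replicate in the gene-richer zones were only 6 different sites, and 1 of these 6 met RUVBL2, that of replicate 2 at 41310178 to 41315294. That peak was 5117 bp wide, and the others in the gene-richer zones were 1457 to 3418 bp wide. The desert peaks were 3184 to 5337 bp wide. Scores ran from 561 to 966 in the deserts and from 988 to 2123 in the gene-richer zones. The part of width and score in the presence of RUVBL2 was not tested. Over all shared regions the shares with RUVBL2 lay closer together, at 51.7% in the deserts and 30.1% in the gene-richer zones.

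Among the sites with all 3 antibodies, ordered by the worst of their 3 ranks, the best of the deserts lay at 81491025 to 81493359. Its scores were 116.7 for H2A.Z, 250.3 and 207.7 for H3K4ox replicates 1 and 2, and 161.0 for RUVBL2. The next was at 60559040 to 60561350, with 102.6, 379.8, 335.8 and 320.8 in the same order. In the gene-richer zones the best lay at 98319825 to 98323758, with an H2A.Z score of 139.5, H3K4ox scores of 280.8 and 323.6 and a RUVBL2 score of 277.4. The longest stretch without a peak of any list, 241 kb from 112343252 to 112584373, lay in a gene-richer zone. Of the 5 longest such stretches, 4 lay in gene-richer zones and 1 in a desert, at 86744421 to 86926161 (182 kb). Unsequenced gaps of hg19, where no peak can be called, were not marked out, and their part in these stretches was not tested.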

How the data were processed

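Per the labels' protocols, sonicated chromatin of MDA-MB-231 cells was precipitated with an antibody. The 4 deposited lists give each peak's position and score. The deposited score is the authors' own, written by the caller MACS per the peak names; no source used here gives its version, settings or scale. Bowtie, TopHat and hg19 are named in the submitters' processing notes without version or role. Each header line contains the term multilocus, which no source used here explains. Lists were made per library, without pooling, and grouped by the antibody in the labels.

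Peaks were assigned to zones, steps and windows by their centre, and zones ended at the outermost peaks. Positions are counted from 1. The share at all positions is exact: each peak's width was placed at every position of the span, or of its zone, and the calculation was tested on simulated data. Score groups and the best 10% are those of the whole list. With 1 list each for H2A.Z and RUVBL2, a permutation test over lists could not go below 0.33, and no other p-value was computed. Gene numbers come from RefSeq for GRCh38.p14 and were used by chromosome only, so no gene or sequence is given at a site. Sites were named by rule: the 5 best-scoring peaks of each list and the 5 best sites of all 3 antibodies in either class of zone, the densest and sparsest steps, the longest peak-free stretches and the group of H2A.Z peaks with most members; part of these is given. The zones, members and settings were chosen with earlier results of these data known. Other settings were the upper 50% by score, coverage of 50% of the peak, 200 bp intervals at the centres, positions within 500 kb or in the same zone, moved zone borders, leaving out the first and last 1 Mb, densities without peak-free stretches of 1 Mb or more, and leaving out each H3K4ox replicate. Those added after seeing the data were H3K4ox peaks of either replicate, peaks of 700 to 900 bp and the upper 25% by score. Python 3.11.15, numpy 2.4.6, pandas 2.3.3, scipy 1.17.1 and matplotlib 3.10.9 were used.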

Additional observations from a re-analysis of the deposited data

Results flagged for a closer look

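On chromosome 13 the antibodies parted between the zones. The H2A.Z density in the deserts was 2.85 times that in the gene-richer zones, whereas both H3K4ox lists were sparser in the deserts, with ratios of 0.538 and 0.519. RUVBL2, with a ratio of 0.818, was also on the other side of equal density from H2A.Z, but this rested on the lower-scoring peaks. In the upper 50% of the RUVBL2 list by score the ratio was 0.97, and in the upper 2 of 4 score groups it was 1.01 (0.808 to 1.27) and 0.945 (0.770 to 1.16). These differences between antibodies were not tested, since H2A.Z and RUVBL2 had 1 list each. The headers name an input for the H3K4ox lists only, and its part in the differences was not tested.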

How the results depend on the processing

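Within score groups, the RUVBL2 density ratio between the zones reached 1.01 in the third of 4 groups, against 0.818 for all peaks. The interval of that group (0.808 to 1.27) included both 0.818 and equal density, so no change of side is shown. The ratios to all positions of the same zone for H2A.Z in H3K4ox changed their order, from 2.70 in the deserts and 4.66 in the gene-richer zones for shared regions to 3.91 and 3.81 with H3K4ox of either replicate. Of the recomputed values, 25 moved by less than the spread between replicates or the counting interval, and 37 moved further. The 25 include H3K4ox densities with 1 replicate left out. Those equal the value of the other replicate and lie within the spread by construction, so they do not show stability.

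For the better-scoring 50% of each list, the ratio of desert to gene-richer density was 0.638 (H3K4ox), 3.91 (H2A.Z) and 0.97 (RUVBL2), and for the upper 25% it was 0.777, 3.71 and 0.945. Zone borders moved 1 Mb into the deserts gave 0.507 for H3K4ox. The ratio to all positions for the H3K4ox replicates (7.01) was 14.7 in the upper 50%, 13.9 with 50% of the peak covered, 24.3 for 200 bp intervals at the centres, 5.76 for positions within 500 kb and 6.55 within the same zone. For RUVBL2 in H3K4ox shared regions (10.8) it was 21.4, 18.7, 23.04 and, within 500 kb, 9.55; it was 6.56 with H3K4ox of either replicate and 8.03 to 8.22 when 1 replicate was left out. For H2A.Z in H3K4ox shared regions (3.30), 50% coverage gave 4.89 and 200 bp intervals 9.44. For H2A.Z with RUVBL2 (4.24), the upper 50% gave 3.51, 50% coverage 6.03 and 200 bp intervals 9.29.

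The desert share of H2A.Z in H3K4ox shared regions (9.93%) was 6.62% in the upper 50%, 4.97% for 200 bp intervals, 27.6% with either replicate and 17.6% to 19.5% when 1 replicate was left out. That of RUVBL2 (67.0%) was 81.8%, 21.5%, 79.96% and 71.9% to 73.9%, and 51.8% for peaks of 700 to 900 bp. The H3K4ox density of chromosome 13 relative to the mean of the chromosomes (0.472) was 0.376 in the upper 50% and 0.454 without long peak-free stretches. The causes of these shifts were not tested.

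No paired analysis was possible because H2A.Z and RUVBL2 had 1 list each and no result came from a test. Depth was unknown, so absence of a peak was not told apart from too few reads. Copy number was not measured.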
